A study of Mus musculus with 13 samples.

Results

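Creatine kinases and the proteins that work beside them carry energy-rich phosphate from mitochondria to the myosin, pump and transporter ATPases of the heart. The gene set described here has 8 genes, chosen by symbol among the 26264 genes of the deposited tables: the creatine kinases Ckm, Ckmt2 and Ckb, the creatine genes Slc6a8, Gatm and Gamt, the adenylate kinase Ak1 and the ADP/ATP carrier Slc25a4. All 8 were present in every table and all 8 passed the filter on low read numbers. They were measured by RNA sequencing in mouse right ventricle, in 7 samples of the Dsg2 F536C knock-in and 6 of the wild type, in a study of PPAR-gamma in a desmosomal arrhythmogenic cardiomyopathy. Dsg2 encodes desmoglein 2, a cadherin of the junctions that hold cardiomyocytes together. The labels name no transgene, promoter or Cre driver. Zygosity, strain, age and sex are not stated in the labels, and no library is labelled with a drug. Nothing in the labels ties each library to an animal of its own, so the p-values reflect the spread among these 13 samples, which may in part be technical.

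In a muscle cell, mitochondrial creatine kinase sits between the inner and outer mitochondrial membranes next to the ADP/ATP carrier and turns new ATP and creatine into phosphocreatine and ADP. Cytosolic creatine kinase runs the reaction the other way beside the ATPases, and adenylate kinase recovers ATP from ADP while producing AMP, the signal read by AMP-activated kinase. Heart cells take up most of their creatine from blood through the transporter Slc6a8, and the pair of enzymes that make creatine, Gatm and Gamt, are best known from kidney, pancreas and liver.

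Libraries held 14498336 to 29848597 reads. Dsg2 lay between 9.48 and 16.0 TPM in knock-in and between 16.9 and 25.0 TPM in wild type (TPM is a read number scaled by gene length and library total), and the difference on the log2 scale was -1.08 ± 0.14 (SE, adjusted p = 6.96e-05, edgeR). Read numbers per gene cannot show the exchanged residue. Among the knock-in libraries, 4, 5 and 6 differed from the rest: 10.2% to 10.7% of their read numbers were fractional, against 3.07% to 3.79% elsewhere. Summed TPM of 6 epithelial markers was 2517 to 3579 in these 3 libraries and 15.9 to 41.2 in knock-in 1, 2, 3 and 7, against 10.2 to 31.2 in wild type. All 4 tested epithelial markers rose with 13 libraries. With 10 libraries 0 rose by edgeR, 1 at an unadjusted p under 0.05, 1 by DESeq2 and 1 by limma-voom. Results are given both with all 13 libraries and with the 10 that remain when these 3 are left out, and a pair of values follows that order.

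The summed TPM of 14 cardiomyocyte structural genes, such as troponins and cardiac myosin chains, was 39217 to 66371 in knock-in and 67855 to 89143 in wild type. Of these genes 12 fell with all 13 libraries, and 10 fell without knock-in 4, 5 and 6. The sum was lowest, 39217 to 40698 TPM, in knock-in 4, 5 and 6. Fibroblast markers summed to 3016 to 4676 TPM in knock-in and 1591 to 2225 TPM in wild type (3 of 8 rose with 13 libraries and 7 with 10). Macrophage markers summed to 1251 to 2990 TPM in knock-in and 747 to 937 TPM in wild type (4 and 7 of 7 rose). Endothelial markers summed to 381 to 681 TPM in knock-in and 341 to 553 TPM in wild type, and 2 of 6 rose with 10 libraries. With 13 libraries 0 rose by edgeR, 0 at an unadjusted p under 0.05, 0 by DESeq2 and 1 by limma-voom. These counts stand beside 21% and 21.3% of all tested genes called lower and 23.6% and 22.3% called higher. Adipocyte and brown fat markers summed to 36.5 to 229 TPM in knock-in and 39.3 to 158 TPM in wild type, and those of kidney, liver and pancreas to at most 5.81 TPM in any library. Skeletal muscle markers summed to 8.12 to 147 TPM in knock-in and 9.31 to 13.1 TPM in wild type. The highest sum was set by Pvalb, at 139 TPM in 1 of knock-in 4, 5 and 6. Of the 5 tested, Mylpf (-1.08 and -1.23) and Tnni2 (-1.69 and -1.64) fell in both sets of libraries. Pvalb rose in both (5.12 and 2.89), and Tnnt3 and Actn3 were not called. The fast myosin Myh4 was at most 0.034 TPM in any library. In bulk tissue, fewer cells of a type and less RNA per cell cannot be told apart, and the part these shifts have in the results below was not tested.

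The 4 most abundant members, Slc25a4, Ckmt2, Ckm and Ak1, fell in knock-in right ventricles (Ckm and Ak1 turned sign when libraries were scaled by the cardiomyocyte genes), and the brain-type creatine kinase Ckb rose. That scaling used summed reads, so the most abundant of the 14 cardiomyocyte genes weighed most. Myl2, at a mean of 27526 TPM in wild type, was at -1.25 and -1.05. The 14 genes had a median log2 fold change of -0.84 and -0.54, and Mybpc3 and Myom1 were not called in either set. The 3 genes of creatine uptake and synthesis, Slc6a8, Gatm and Gamt, did not pass the test. The same 4 lower and 1 higher calls were made with 13 and with 10 libraries. Over the whole table, 21% of 14588 tested genes were called lower and 23.6% higher with 13 libraries, and 21.3% of 14518 were called lower and 22.3% higher with 10. Over all tested genes the log2 fold change had a median of 0.08 and 0.02, and over the 8 members one of -0.35 in both sets.

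Ckm, the muscle-type cytosolic creatine kinase of the sarcomere, had 787 TPM at the lowest, 935 at the median and 1287 at the highest in knock-in, against 1079.7, 1211 and 1608 in wild type. The groups overlapped in TPM: 5 of 7 knock-in libraries lay below every wild-type one, and knock-in 1 and 3 lay within the wild-type range. In CPM scaled by TMM, the scale of the test (reads scaled by the library total with a correction for its composition), every knock-in library was below every wild-type library, at 654 to 1181 against 1382 to 1633. Lack of overlap in that direction was seen for 10.5% of all tested genes with 13 libraries and 15% with 10. On the log2 scale the difference in Ckm was -0.78 ± 0.14 (SE, adjusted p = 0.000774, edgeR), and -0.63 ± 0.14 (SE, adjusted p = 0.00296) with 10 libraries. With limma on log2(TPM + 1) the 10 libraries gave -0.24 (adjusted p = 0.142), and when libraries were scaled by the cardiomyocyte genes the sign turned, at 0.19 and 0.10 (adjusted p = 0.130 and 0.50).

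Ckmt2, the sarcomeric mitochondrial creatine kinase, was at 1083, 1319 and 1853 TPM (lowest, median and highest) in knock-in and at 1691, 2525 and 2829 TPM in wild type. Only wild type 1, at 1691 TPM, was as low as the upper knock-in libraries, knock-in 2 and 3. In CPM the groups did not overlap, at 894 to 1759 in knock-in and 1949 to 3836 in wild type. On the log2 scale the difference was -1.24 ± 0.19 (SE, adjusted p = 0.000253, edgeR), and -0.999 ± 0.19 (SE, adjusted p = 0.000849) with 10 libraries, in which knock-in 1, 2, 3 and 7 had 1319, 1724, 1853 and 1515 TPM. Scaled by the cardiomyocyte genes the difference was -0.26 and -0.24 (adjusted p = 0.0200 and 0.103). Ckm and Ckmt2 each have an exon that overlaps an antisense gene on the other strand, A930016O22Rik by 210 bases and 1700119I11Rik by 84 bases in a GENCODE annotation of an older build. The strand setting of the counting is not given in the sources used here, so reads of these pairs cannot be told apart.

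Ckb, the cytosolic isoform known from brain, smooth muscle and the fetal heart, had 55.6 TPM at the lowest, 82.8 at the median and 307 at the highest in knock-in. In wild type it had 29.4, 32.3 and 42.7 TPM. Every knock-in library was above every wild-type library in TPM, as were 23.6% of all tested genes with 13 libraries and 33.5% with 10. In CPM knock-in 5, at 46.6, fell within the wild-type range of 40.1 to 49.9, and the other 6 knock-in libraries were above it. With 10 libraries every knock-in value was above that range in CPM too (8.61% of all tested genes lay fully above in CPM with 13 libraries and 14.8% with 10). On the log2 scale the difference was 1.27 ± 0.37 (SE, adjusted p = 0.0149, edgeR), and 0.81 ± 0.13 (SE, adjusted p = 0.000240) with 10 libraries.

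The size of the Ckb rise with 13 libraries rested on knock-in 4, which had 307 TPM against 109 TPM in the next knock-in library. Without it the log2 fold change was 0.74, and the call was kept. Markers of smooth muscle, a tissue known to express Ckb, summed to 252.2 to 691 TPM in knock-in and 132 to 225 TPM in wild type. Of these 4 markers 2 rose with 13 libraries and 2 with 10, beside 23.6% and 22.3% of all tested genes. Tagln, at 1.17 and 0.79, was the 1 called in both sets. Markers of glia and neurons summed to 76.8 to 148 TPM in knock-in 4, 5 and 6 and 20.7 to 26.2 TPM in knock-in 1, 2, 3 and 7, against 8.97 to 30.3 TPM in wild type. Ucp1 of brown fat, a tissue known to express Ckb, did not pass the filter. It was at 34.7 TPM in knock-in 2 and at most at 2.30 TPM in wild type. Ckb in knock-in 2, at 59.97 TPM, was below the knock-in median of 82.8 TPM. Of the 6 tested adipocyte and brown fat markers, Dio2 rose in both sets (3.46 and 3.69). Adipoq, Plin1, Cidec, Lep and Cidea were not called in either set. The part of these cell types in the Ckb values was not tested.

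**Figure D1:**
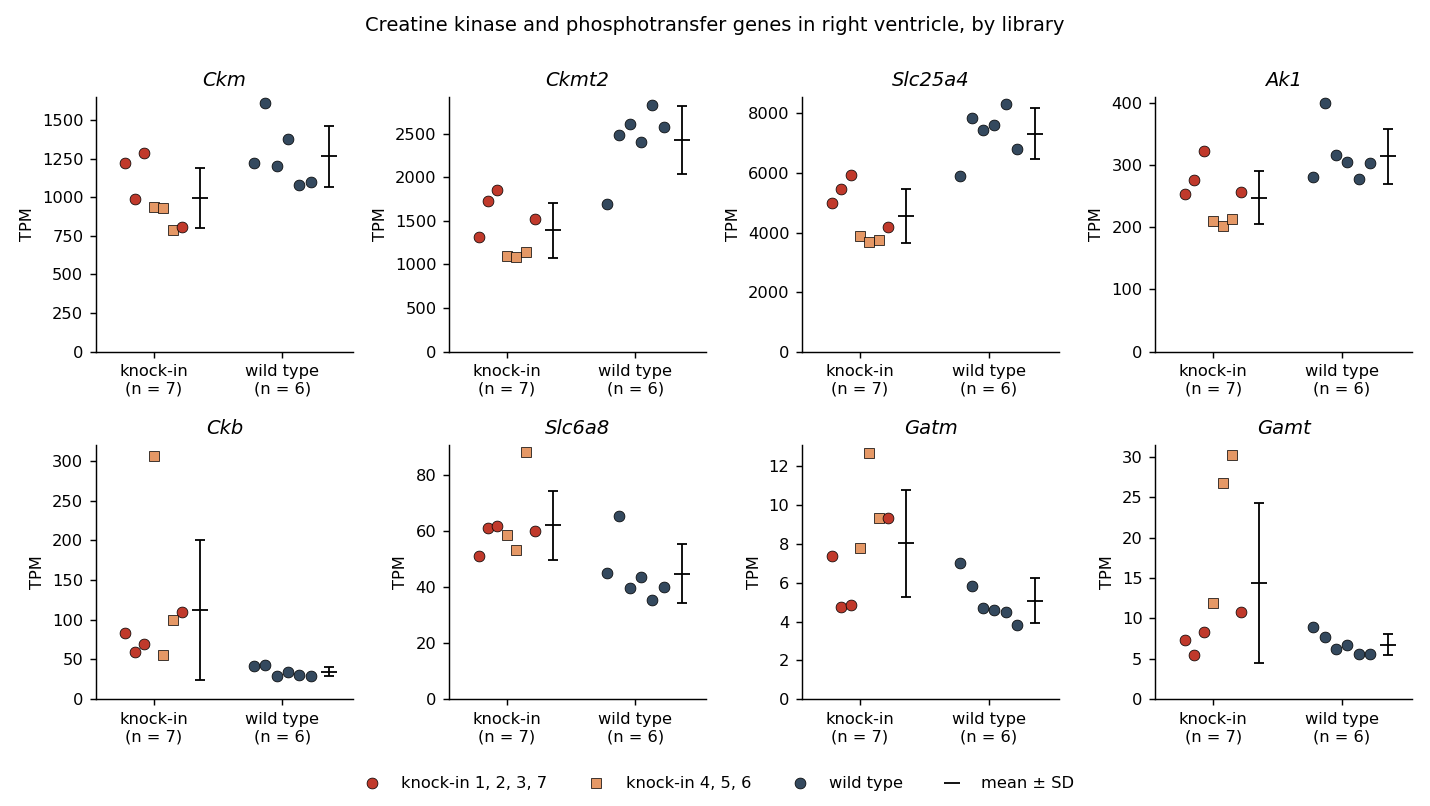
TPM of the 8 members in each library on linear axes that start at 0, knock-in left of wild type, with knock-in 4, 5 and 6 as squares and the mean ± SD beside each group. Ckb lies between 55.6 and 307 TPM in knock-in and between 29.4 and 42.7 TPM in wild type without overlap, while Ckm, Ckmt2, Ak1 and Slc25a4 lie lower in most knock-in libraries.

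The fourth creatine kinase gene, Ckmt1, encodes the ubiquitous mitochondrial form known from brain and epithelia. It was at 44.2, 38.1 and 69.0 TPM in knock-in 4, 5 and 6 and at 0.768 to 2.41 TPM in the other knock-in libraries, against 0.569 to 2.50 TPM in wild type. The log2 fold change of 3.47 ± 1.07 (SE, adjusted p = 0.0198, edgeR) was -0.31 ± 0.40 (SE, adjusted p = 0.560) without those 3 libraries. The same 3 libraries held Epcam, a surface protein of epithelia, at 18.2 to 46.4 TPM, and no other library had more than 0.264 TPM. The part of epithelial RNA in the Ckmt1 values was not tested.

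Taken as 1 pool, TPM of the 4 creatine kinase genes summed to 2098 at the lowest, 2435 at the median and 3211 at the highest in knock-in, against 2954, 3828 and 4130 in wild type. Shares within the pool were not tested, and those of Ckmt2, Ckm and Ckmt1 overlapped between the genotypes. Ckb was 2.16% to 12.9% of it in knock-in, with knock-in 4 highest and the next library at 4.75%, and 0.768% to 1.42% in wild type. Ckmt2 was 46.0% to 62.2% in knock-in and 57.2% to 71.8% in wild type, while Ckm was 33.2% to 46.6% in knock-in and 27.4% to 41.3% in wild type. Ckmt1 reached 1.81% to 3.29% in knock-in 4, 5 and 6 and stayed at 0.0138% to 0.0655% in wild type.

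Ratios of members within a library do not depend on the scaling between libraries, and 3 such ratios were tested with a two-sided exact permutation test and adjustment over the 3. Ckb was 5.39% at the lowest, 6.75% at the median and 32.8% at the highest of Ckm TPM in knock-in, and 2.44%, 2.66% and 3.44% in wild type. The 32.8% was that of knock-in 4, and the next knock-in library was at 13.5%. The groups did not overlap, and the mean log2 ratio was 1.81 higher in knock-in (exact p = 0.000583, the smallest this test can give, adjusted p = 0.00175). With 10 libraries it was 1.43 higher (exact p = 0.00476, again the smallest possible, adjusted p = 0.00714). The share of all genes whose ratio to Ckm separates the groups was not computed. In log2(TPM + 1) with 13 libraries Ckm was at -0.35, Ckb at 1.43 and the median of all tested genes at 0.38. The median gene thus also rose relative to Ckm. The balance of cytosolic creatine kinase transcripts lay further toward Ckb in each knock-in library, though Ckm was the more abundant of the pair in all 13 libraries.

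Ckmt2 was 108% at the lowest, 144% at the median and 188% at the highest of Ckm TPM in knock-in, against 139%, 196% and 262% in wild type. These ranges overlapped. The log2 ratio was 0.46 lower in knock-in on average, a difference of -0.46 (exact permutation p = 0.0344, adjusted p = 0.0344). With 10 libraries it was -0.35 (exact permutation p = 0.186). The call was also lost without any 1 of knock-in 1, 3, 4, 5 or 6 or wild type 3, 5 or 6, with adjusted p up to 0.0745, and the difference was -0.56 to -0.37 over all 13 such sets.

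**Figure D2:**
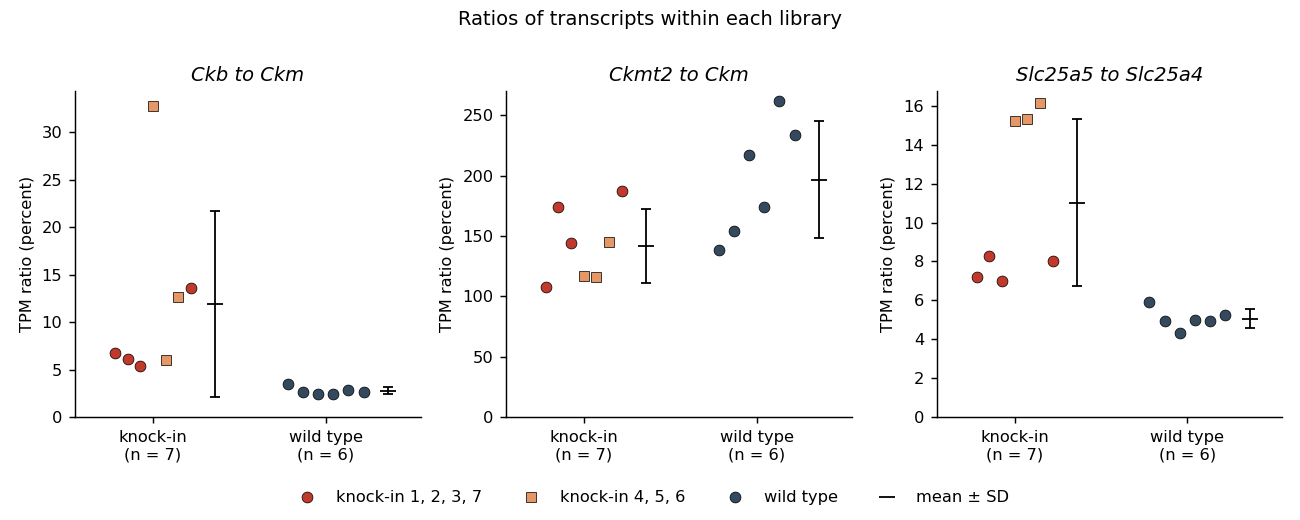
Ratio of TPM within each library, in percent on linear axes that start at 0, for Ckb to Ckm, Ckmt2 to Ckm and Slc25a5 to Slc25a4, knock-in left of wild type, with knock-in 4, 5 and 6 as squares and the mean ± SD beside each group. Ckb to Ckm is 5.39% to 32.8% in knock-in and 2.44% to 3.44% in wild type, and Slc25a5 to Slc25a4 separates the groups as well.

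Slc25a4 encodes the ADP/ATP carrier of heart and muscle mitochondria (ANT1), which exports the ATP that Ckmt2 uses. It was the most abundant member, ranked 17 to 27 of 26264 genes by TPM in knock-in libraries and 15 to 22 in wild-type libraries. It had 3681, 4186 and 5931 TPM (lowest, median and highest) in knock-in and 5912, 7517 and 8314 TPM in wild type. Knock-in 3 alone lay within the wild-type range, just above wild type 1, and in CPM all knock-in libraries were below all wild-type ones, at 2638 to 4937 against 6043 to 9851. On the log2 scale the difference was -1.12 ± 0.17 (SE, adjusted p = 0.000228, edgeR), and -0.90 ± 0.17 (SE, adjusted p = 0.000826) with 10 libraries. Scaled by the cardiomyocyte genes it was -0.14 and -0.16 (adjusted p = 0.0414 and 0.214).

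The isoform of proliferating and non-muscle cells, Slc25a5 (ANT2), was at 335, 451 and 608 TPM in knock-in and 322, 368 and 412 TPM in wild type. It did not pass the test, with log2 differences of -0.07 ± 0.15 and -0.30 ± 0.13 (SE, adjusted p = 0.698 and 0.0802, edgeR). Limma-voom called it lower in both sets, at -0.32 and -0.35 (adjusted p = 0.0215 and 0.0140), and DESeq2 with 10 libraries, at -0.31 (adjusted p = 0.0468). Scaled by the cardiomyocyte genes it was called higher, at 1.00 and 0.44 (adjusted p = 0.00114 and 0.00252). Slc25a5 was 6.98% at the lowest, 8.25% at the median and 16.2% at the highest of Slc25a4 TPM in knock-in, and 4.33%, 4.98% and 5.89% in wild type. The groups did not overlap. The log2 ratio was 1.04 higher in knock-in (exact permutation p = 0.00175, adjusted p = 0.00262), and 0.59 higher with 10 libraries (exact permutation p = 0.00476, adjusted p = 0.00714). The 3 ratios of 15.2% to 16.2% belonged to knock-in 4, 5 and 6. The share of all genes whose ratio to Slc25a4 separates the groups was not computed. In log2(TPM + 1) with 13 libraries Slc25a4 was at -0.70 and Slc25a5 at 0.34, close to the median of all tested genes at 0.38. The higher ratio therefore does not set Slc25a5 apart from the typical gene. The testis isoform, Slc25a31, did not pass the filter on low read numbers and was at most 0.433 TPM in knock-in and 1.03 TPM in wild type.

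Ak1, the main cytosolic adenylate kinase of muscle, was at 201, 254 and 322 TPM (lowest, median and highest) in knock-in and at 278, 305 and 399 TPM in wild type. Knock-in 3 was the 1 knock-in library within the wild-type range in TPM, and in CPM the groups did not overlap, at 244 to 447 in knock-in and 477 to 613 in wild type. On the log2 scale the difference was -0.76 ± 0.14 (SE, adjusted p = 0.000741, edgeR), and -0.57 ± 0.12 (SE, adjusted p = 0.00144) with 10 libraries. As for Ckm, limma on log2(TPM + 1) with 10 libraries gave no call (-0.18, adjusted p = 0.187), and scaling by the cardiomyocyte genes turned the sign, to 0.20 and 0.17 (adjusted p = 0.0464 and 0.206).

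Among the paralogs of Ak1, Ak3, of the mitochondrial matrix, was at 57.3 to 68.6 TPM in knock-in and 52.4 to 74.4 TPM in wild type, with log2 fold changes of -0.36 and -0.24 (adjusted p = 0.0113 and 0.0425, edgeR). Ak4, also of the matrix, was at 7.58 to 13.2 TPM in knock-in and 8.74 to 15.2 TPM in wild type, with -0.51 and -0.36 (adjusted p = 0.0123 and 0.0135, edgeR). In log2(TPM + 1) neither gene was called, and Ak3 changed sign in both sets. With 10 libraries, leaving out 1 library at a time lost the edgeR call of Ak3 in 8 of 10 sets, with adjusted p up to 0.119.

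Slc6a8, the sodium- and chloride-coupled creatine transporter, was at 51.1, 59.9 and 88.1 TPM (lowest, median and highest) in knock-in and at 35.5, 41.6 and 65.2 TPM in wild type. Wild type 2 was the 1 wild-type library inside the knock-in range. In the count test the difference was 0.06 ± 0.13 and 0.02 ± 0.10 (SE, adjusted p = 0.721 and 0.907, edgeR). In limma on log2(TPM + 1), where the median of all tested genes was itself at 0.38 and 0.32, Slc6a8 was called higher at 0.47 and 0.40 (adjusted p = 0.0149 and 0.0204). Relative to those medians, the transporter stood close to the typical gene on both scales. Scaled by the cardiomyocyte genes with 13 libraries, Slc6a8 was called higher, at 1.08 (adjusted p = 0.000321, edgeR), where the median of all tested genes was at 1.10.

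Gatm, the amidinotransferase that makes guanidinoacetate, was at 4.77, 7.81 and 12.7 TPM in knock-in and 3.80, 4.65 and 7.01 TPM in wild type, from 110 to 435 reads in knock-in and 120 to 264 in wild type. Its log2 difference was 0.24 ± 0.19 and -0.01 ± 0.17 (SE, adjusted p = 0.317 and 0.979, edgeR). With 13 libraries Gatm was called higher by limma on log2(TPM + 1), at 0.53 (adjusted p = 0.0301), and not with 10, at 0.30 (adjusted p = 0.147). Scaled by the cardiomyocyte genes it was called higher in both sets, at 1.32 and 0.77 (adjusted p = 0.00183 and 0.00924). Gamt, which methylates guanidinoacetate to creatine, was at 5.45, 10.7 and 30.2 TPM in knock-in and 5.53, 6.43 and 8.88 TPM in wild type, from 57 to 490 reads in knock-in and 67 to 126 in wild type. Knock-in 5 and 6, at 26.7 and 30.2 TPM, held the highest Gamt values. The difference was 0.63 ± 0.34 and -0.14 ± 0.18 (SE, adjusted p = 0.136 and 0.545, edgeR). Gamt was called higher with library totals and 13 libraries, at 0.88 (adjusted p = 0.0451), and with the cardiomyocyte scaling in both sets, at 1.79 and 0.62 (adjusted p = 0.00306 and 0.0319).

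The list of 6 kidney, liver and pancreas markers covers the organs best known for creatine synthesis. Of these Umod and Prss2 were listed at 0 TPM in all 13 libraries. Cela1, an elastase known from pancreas, rose by 1.28 and 1.57, with 1.84 to 4.94 TPM in knock-in and 0.572 to 1.31 TPM in wild type. Lrp2, a receptor known from kidney, was at 0.075 to 2.35 TPM in knock-in and 0.189 to 0.844 TPM in wild type and did not pass the test. Alb and Apoa1 of liver did not pass the filter, at no more than 0.286 and 0.335 TPM in knock-in and 0.616 and 1.20 TPM in wild type. The part of such cells in the Gatm and Gamt values was not tested.

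Among themselves the members ranged from Slc25a4 down to Gatm, and the order Slc25a4, Ckmt2, Ckm, Ak1 by median TPM was the same in both genotypes. Below them came Ckb and Slc6a8, which changed places: by median TPM Ckb was above Slc6a8 in knock-in (82.8 and 59.9) and below it in wild type (32.3 and 41.6). The ranges of the pair overlapped within each genotype. Gamt and Gatm were the lowest and overlapped with each other in both genotypes. Spread between libraries also differed: the coefficient of variation of TPM was 11.6% to 23.5% for the 8 members in wild type, and in knock-in it was 78.7%, 68.9% and 34.6% for Ckb, Gamt and Gatm and 17.4% to 22.5% for the other 5. Slc6a8 was the 1 member with a lower value in knock-in (19.7%) than in wild type (23.5%). The highest Ckb value was that of knock-in 4, and the highest Gamt values were those of knock-in 5 and 6.

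**Figure D3:**
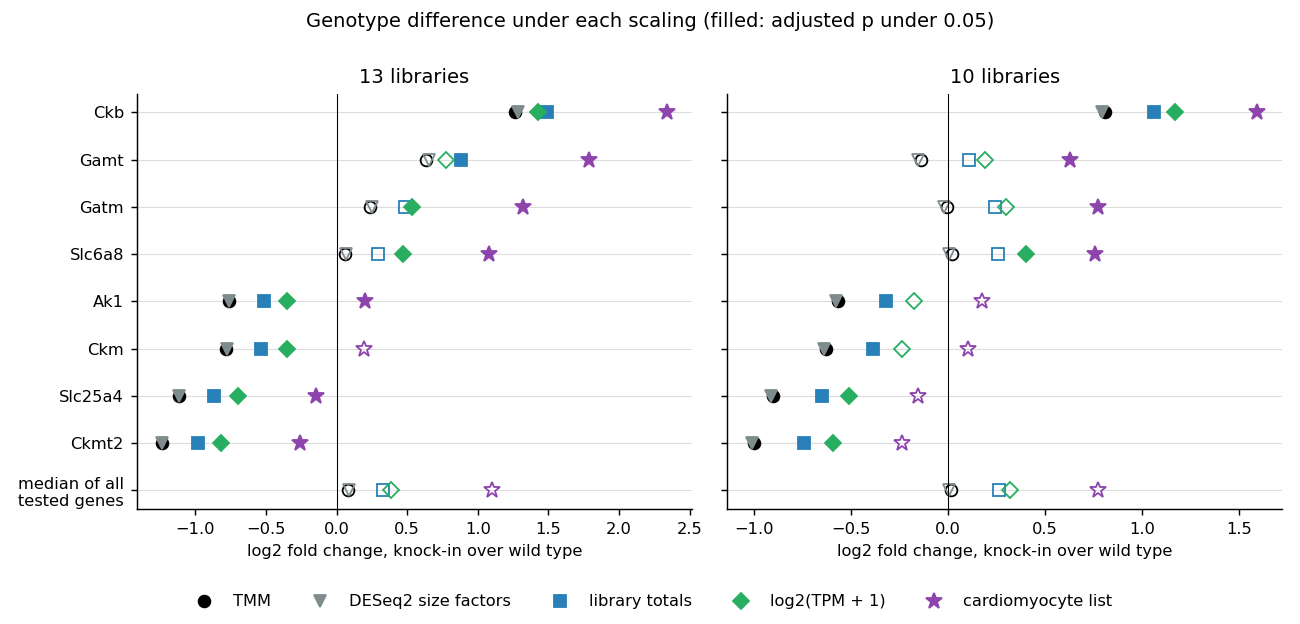
Log2 fold change, knock-in over wild type, of the 8 members under each scaling of the libraries, with the median of all tested genes beside them, for 13 and for 10 libraries. Ckm and Ak1 are negative with TMM, at -0.78 and -0.76 with 13 libraries, and slightly positive, at 0.19 and 0.20, when libraries are scaled by 14 cardiomyocyte genes.

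The promoters of the members that carry these results are shown so that 3 of the 4 members that fell can be read beside the creatine kinase that rose. Ak1, which has 4 windows in the table, is not printed. They are the 250 bases before the RefSeq start, on the coding strand, in build GRCm38.p6, which is older than the build of the read tables. Capitals mark matches to 3 motifs searched on both strands: the E-box CANNTG of muscle and other basic helix-loop-helix factors, the element AAGGTCA of oestrogen-related receptors, and the MEF2 motif. The regions are chr7:19410844-19411093 (plus strand) for Ckm, chr13:91876886-91877135 (minus) for Ckmt2, chr8:46211063-46211312 (minus) for Slc25a4 and chr12:111672339-111672588 (minus) for Ckb.
Ckm: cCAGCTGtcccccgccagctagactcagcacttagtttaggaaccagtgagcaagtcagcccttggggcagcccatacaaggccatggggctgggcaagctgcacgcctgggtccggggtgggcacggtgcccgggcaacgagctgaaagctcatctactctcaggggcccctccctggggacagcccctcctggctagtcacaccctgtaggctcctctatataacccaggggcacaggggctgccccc
Ckmt2: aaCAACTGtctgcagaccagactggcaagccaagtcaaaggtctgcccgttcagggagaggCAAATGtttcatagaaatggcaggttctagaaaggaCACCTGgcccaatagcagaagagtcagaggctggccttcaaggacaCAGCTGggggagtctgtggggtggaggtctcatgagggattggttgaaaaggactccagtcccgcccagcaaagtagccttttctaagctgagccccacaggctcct
Slc25a4: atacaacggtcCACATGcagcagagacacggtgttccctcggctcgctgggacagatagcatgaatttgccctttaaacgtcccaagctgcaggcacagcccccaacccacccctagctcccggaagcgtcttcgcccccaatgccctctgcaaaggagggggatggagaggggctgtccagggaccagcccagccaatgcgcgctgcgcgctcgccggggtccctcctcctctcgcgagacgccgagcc
Ckb: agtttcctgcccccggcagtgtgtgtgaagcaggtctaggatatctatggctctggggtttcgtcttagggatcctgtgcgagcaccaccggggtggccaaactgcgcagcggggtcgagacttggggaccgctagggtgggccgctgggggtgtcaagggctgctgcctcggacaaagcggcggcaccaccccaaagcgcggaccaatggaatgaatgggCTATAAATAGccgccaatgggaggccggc

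The window of Ckm held 1 E-box, CAGCTG, starting at -249, and that of Slc25a4 held 1, CACATG, at -239. Ckmt2 held 4, at -248, -189, -153 and -107. Ckb held no E-box and 1 match to the MEF2 motif, at -29, whose letters also include those of a TATA box. In the full windows of 300 bases, which run 50 bases past the start, Gatm had an E-box at -71 and Gamt one at 3. Of the 4 Ak1 windows in the table all held E-boxes. The third held the AAGGTCA element, at -90, and the second a MEF2 match at 21, and no other window of a member held either apart from that of Ckb. Of all 32851 windows of the same length, 72.3% held an E-box, 4.72% the AAGGTCA element and 3.19% the MEF2 motif. RefSeq windows were matched for 7 of the 8 members, and Slc6a8 is named only. A match is a description of letters, not a site.

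The genes whose log2 CPM followed each member most closely over the 13 libraries were listed by Pearson r, as a description: the libraries fall into 2 genotypes and share their scaling, so genes that differ between the genotypes correlate. Ckmt2 was closest to Sdhd (r = 0.996), a subunit of succinate dehydrogenase, Pdhb (0.995), a subunit of pyruvate dehydrogenase, and Mospd1 (0.994). Slc25a4 was closest to Coq7 (0.994), an enzyme of ubiquinone synthesis, Sdhb (0.994) and Pm20d1 (0.992), and Ak1 to Coq2 (0.993), Cox10 (0.993) and Ubl4a (0.988). Ckm was closest to the muscle enolase Eno3 (0.982), Samm50 (0.974) and Pxmp2 (0.973). Ckb was closest to Lpcat1 (0.952), Ppp1r9b (0.945) and Kmo (0.943). For Gamt the highest was Rgl2 (0.962), for Slc6a8 Carm1 (0.930) and for Gatm Tgif2 (0.876).

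Around the members, 5 lists of related genes were fixed by function. The counts of each list stand beside 21% lower and 23.6% higher of all tested genes with 13 libraries. With 10 libraries these shares were 21.3% and 22.3%. Of 19 adenylate and other nucleotide kinases, counted with the nucleoside kinase Adk, 16 were tested with 13 libraries and 15 with 10. Of these 7 fell in both sets, Adk among them. With 13 libraries 7 were lower and 1 higher (median log2 fold change -0.21), the higher one being Ak5, at 0.152 to 4.45 TPM in knock-in and 0.021 to 0.071 TPM in wild type and named after its value was seen. Ak5 was not tested with 10 libraries, and it did not pass the filter without any 1 of knock-in 1, 2, 4, 5, 6 or 7 or at 1 CPM in 6 libraries. It passed through the knock-in libraries, where it is high, so its call is a description. With 10 libraries 8 were lower and 0 higher by edgeR (median -0.30), with 0 higher at an unadjusted p under 0.05, 0 by DESeq2 and 1 by limma-voom. Nme4, also named after its values were seen, was lower with 10 libraries at -0.65 (adjusted p = 0.00631, edgeR) and not called with 13, at 1.39 (adjusted p = 0.0959). Nme6, Nme2 and Nme5, of the nucleoside diphosphate kinase family, were at -1.15 and -1.22, at -0.56 and -0.47, and at -0.87 and -0.64. Adk, the kinase that returns adenosine to AMP, was at 141 to 222 TPM in knock-in and 218 to 352 TPM in wild type, with -1.14 and -0.95. In log2(TPM + 1) the list had 3 lower and 6 higher genes with 13 libraries and 3 and 4 with 10, without Nme2 (-0.10, adjusted p = 0.274, and -0.075, adjusted p = 0.496) and, with 10, without Nme5 (adjusted p = 0.0944). Under the cardiomyocyte scaling it had 0 and 13, and 1 and 9 with 10.

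Mitochondrial exchange of ATP, ADP, phosphate and creatine phosphate was covered by 10 genes, of which 9 were tested. With 13 libraries 4 were lower and 3 higher (median -0.26), and with 10 libraries 4 were lower and 1 higher (median -0.31). The 4 lower were the same in both sets, and the 2 others higher with 13 libraries were Ckmt1 and, named after its value was seen, Slc25a25 (0.91, and 0.21 with 10). Vdac1, Vdac2 and Vdac3, the channels of the outer membrane, were at -0.81 and -0.71, at -0.51 and -0.42, and at -0.96 and -0.80. Slc25a3, which imports phosphate for ATP synthesis, had 692 to 926 TPM in knock-in and 871 to 1156 TPM in wild type, with -0.70 and -0.65. Slc25a24, a calcium-regulated carrier of ATP-Mg and phosphate, rose in both sets, by 0.95 and 0.81. Its 12.3 to 18.6 TPM in knock-in did not overlap the 4.74 to 6.62 TPM in wild type. Such upward separation in TPM was seen for 23.6% of all tested genes with 13 libraries and 33.5% with 10. In log2(TPM + 1) 3 genes were lower and 2 higher with 13 libraries and 3 and 3 with 10, and Vdac2 was not called (-0.065 and -0.019, adjusted p = 0.536 and 0.881). Under the cardiomyocyte scaling 0 were lower in either set, with 7 and 5 higher. Limma-voom, and an edgeR fit with the replicate number as a block, each called 1 gene higher with 13 libraries.

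AMP metabolism and AMP-activated kinase were covered by 16 genes, 15 of them tested. With 13 libraries 4 were lower and 2 higher (median -0.27), and with 10 libraries 5 were lower and 3 higher (median -0.11). The 4 of 15 lower stand beside 21% of all tested genes. In log2(TPM + 1) 0 genes of the list were lower in either set, with 5 and 6 higher, and under the cardiomyocyte scaling 0 were lower, with 14 and 12 higher. Subunits of the kinase went both ways. The catalytic subunit Prkaa2, which predominates in muscle, was at -0.70 and -0.50, Prkab1 at -0.67 and -0.67 and Prkag1 at -0.45 and -0.40, while Prkag2 was at 0.35 and 0.38. In log2(TPM + 1) Prkaa2, Prkab1 and Prkag1 were not called in either set, with adjusted p of 0.102, 0.180 and 0.919 with 13 libraries. Ampd2, an AMP deaminase, rose by 0.90 and 0.59, and Adss1, the muscle adenylosuccinate synthase, fell, at -0.50 and -0.32 (-0.095 and 0.060 in log2(TPM + 1), not called). The further calls with 10 libraries, named after their values were seen, were Adsl at -0.48 and Prkab2 at 0.48.

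Among 6 ATPases that spend the ATP, 3 fell with 13 libraries (median -0.61) and 4 with 10 (median -0.62). Atp2a2, the calcium pump of the sarcoplasmic reticulum, had 1097 to 2127 TPM in knock-in and 2272 to 3317 TPM in wild type, with -1.26 and -1.02. Myh6, the adult ventricular myosin of mice, which is also 1 of the 14 cardiomyocyte genes, was at -1.05 and -0.79. With 13 libraries 0 rose by edgeR, 0 at an unadjusted p under 0.05, 0 by DESeq2 and 0 by limma-voom. The 1 rise with 10 libraries was that of Myh7, the fetal ventricular myosin in mice, at 0.51 (adjusted p = 0.0207, edgeR), and the fourth fall was that of Atp1b1, at -0.45, both named after their values were seen. On the scale of log2(TPM + 1) 3 were lower and 2 higher in both sets, with library totals 3 were lower and 1 higher in both, and under the cardiomyocyte scaling 1 was lower and 3 were higher in both.

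Of 13 regulators known upstream of such genes, all tested, 9 were lower and 1 higher with 13 libraries (median -0.52), and 8 were lower and 0 higher by edgeR with 10 (median -0.30). At 10 libraries 0 were higher at an unadjusted p under 0.05, 0 by DESeq2 and 1 by limma-voom. The 1 higher with 13 was Nrf1, at 0.30 (adjusted p = 0.0451, edgeR), named after its value was seen. Esrrg and Esrra, oestrogen-related receptors that drive mitochondrial genes, were at -1.09 and -0.96 and at -0.58 and -0.58. Esrrg had 7.47 to 12.0 TPM in knock-in and 12.9 to 16.0 TPM in wild type, with no overlap, as for 2.81% of all tested genes in that direction with 13 libraries and 3.46% with 10. Mef2a, a muscle transcription factor, was at -0.63 and -0.55 and Tfam, which maintains mitochondrial DNA, at -0.73 and -0.51. By limma on log2(TPM + 1) 2 of the regulators were lower and 3 higher with 13 libraries and 1 and 2 with 10. Mef2a (adjusted p = 0.113 and 0.207) and Esrra (adjusted p = 0.444 and 0.288) were not called there, nor was Tfam with 10 libraries (adjusted p = 0.366). Library totals gave 4 lower and 1 higher with 13 libraries and 4 and 2 with 10, and the cardiomyocyte scaling 0 lower in either set with 10 and 8 higher. When libraries were scaled by the cardiomyocyte genes, Mef2a, Esrra, Tfam, Vdac1, Vdac2, Slc25a3, Nme2, Nme5, Prkaa2, Prkab1, Prkag1 and Adss1 had positive log2 fold changes in both sets, and Vdac3 with 13 libraries.

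**Figure D4:**
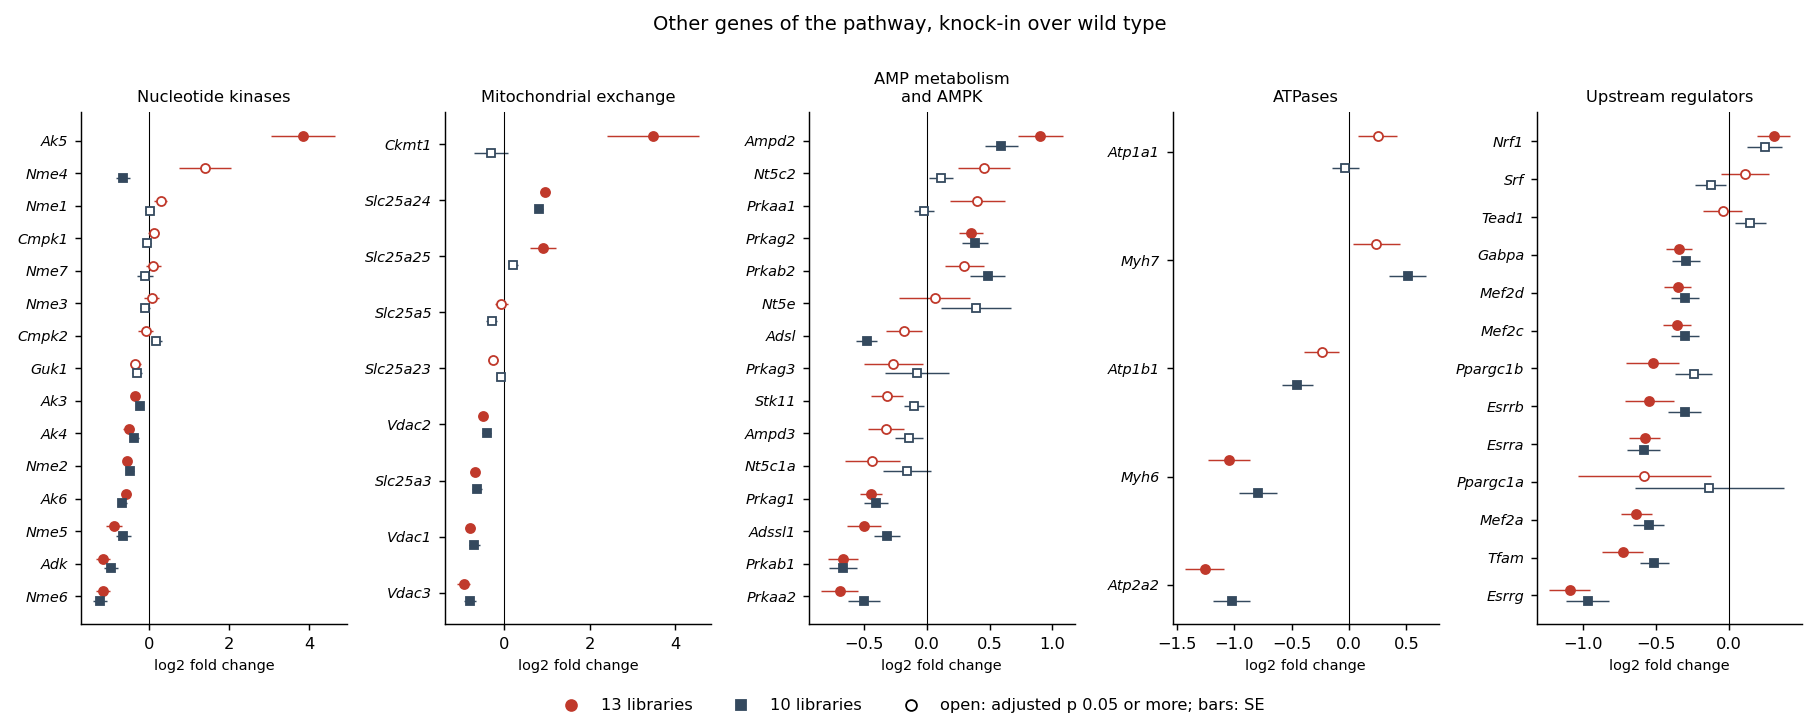
Log2 fold change ± SE, knock-in over wild type, of tested genes of the 5 related lists, with circles for 13 libraries, squares for 10 and filled points for genes that passed the test. Ckmt1 is at 3.47 with 13 libraries and at -0.31 with 10, whereas Vdac1, Atp2a2 and Esrrg are lower in both sets.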

How the data were processed

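Stranded Illumina libraries were made from poly(A)-selected RNA of right ventricles, per the labels' protocols. DRAGEN and GRCm39 are named in the submitters' processing notes, whereas the annotation and the strand setting of the counting could not be read from the labels. The authors deposited estimated counts for each gene, some of them fractional, and TPM, per the file headers. Library totals were 14498336 to 29848597 reads.

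After rounding of the estimated counts, genes were filtered by filterByExpr, libraries scaled by TMM, and the genotypes compared with no covariate in edgeR 4.0.16 (R 4.3.3; glmQLFit with robust fitting, glmQLFTest). P-values were adjusted by Benjamini-Hochberg over all tested genes, and calls have an adjusted p under 0.05. The fit was repeated on the 10 libraries without knock-in 4, 5 and 6. CPM are counts scaled to the library total after TMM, and log2 CPM for likeness used a prior count of 2. Ratios of TPM were compared by exact permutation (Python 3.11.15, scipy 1.17.1). A value was called whole within 1e-09.

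Groups and replicate numbers come from the titles. The members, the lists and the tests were chosen with earlier results of these data known. The text names all 8 members, Dsg2, the paralogs, up to 4 genes by smallest p in each direction of each related list that were called the same way in both sets, and the 3 genes with the highest r for a member; some genes that this rule names are not reported here. There are 5 related lists and 10 marker lists. Adss1 was matched through a RefSeq synonym to its older symbol in the tables.

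Alternatives were DESeq2 size factors, DESeq2 (1.42.0), library totals, scaling by the summed reads of the cardiomyocyte list, limma-voom with quality weights (limma 3.58.1), limma on log2(TPM + 1) and log2(TPM + 0.1), other filters, a replicate block, a stricter threshold and each library left out in turn. The fitting steps were tested on simulated data. Promoter windows are from RefSeq, GRCm38.p6; exon overlaps are from a GENCODE annotation of GRCm38 and were used for neighbours only.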

Additional observations from a re-analysis of the deposited data

Results flagged for a closer look

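In 45 groups of member and paralog values, 6 held a library whose gap to its nearest neighbour took most of the group's range (Dixon's 95% limit); chance alone flags about 1 in 20 groups. Ckb was at 306.6 TPM in knock-in 4, with the next knock-in library at 109.5 TPM. Slc6a8 was at 88.09 TPM in knock-in 6, with the next at 61.88 TPM, and at 65.16 TPM in wild type 2, with the next wild-type library at 45.03 TPM. Ak1 was at 399.5 TPM in wild type 2 and at most at 316 TPM in the other wild-type libraries. Ak3 was at 68.63 TPM in knock-in 2 among knock-in 1, 2, 3 and 7, whose next value was 64.17 TPM, and at 74.36 TPM in wild type 2, whose next was 57.9 TPM. Wild type 2 accounts for 3 of the 6 gaps, all upward in TPM, and in CPM Ak1 in wild type 2, at 607, was within the range of the other wild-type libraries, 477 to 613.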

How the results depend on the processing

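In the alternatives run, Ckb kept a positive and Ckmt2 and Slc25a4 a negative log2 difference, though Ckmt2 and Slc25a4 lost their calls under the cardiomyocyte scaling with 10 libraries (-0.24 and -0.16). Leaving out any 1 library changed no call of the 8 members in either set (4 lower and 1 higher throughout), while calls over all genes ranged from 2533 to 3177 lower and 2957 to 3653 higher with 13 libraries and from 2544 to 3347 lower and 2613 to 3392 higher with 10. Over such sets the log2 difference of Slc6a8 was -0.025 to 0.17 with 13 libraries and -0.033 to 0.087 with 10, that of Gatm with 10 libraries was -0.16 to 0.10, and that of Slc25a5 with 13 libraries was -0.15 to 0.036. The ratio of Ckmt2 to Ckm lost its call without knock-in 4, 5 and 6, at -0.35, and ranged from -0.56 to -0.37 over the sets without 1 library.

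The scaling decided how many genes were called in each direction, and the cause was not tested. Scaling by the cardiomyocyte list moved the median of all genes to 1.10 and 0.77 (log2; 13 and 10 libraries). It gave 215 lower and 12553 higher genes with 2 members lower and 5 higher, and with 10 libraries 231 and 11257 genes with 0 members lower and 4 higher. Library totals moved the median to 0.33 and 0.26, with 1661 lower and 6110 higher genes and 2 members higher, and with 10 libraries 1528 and 6049 genes. Log2(TPM + 1) gave 1087 and 7665 genes with 3 members higher, and with 10 libraries 924 and 7737 genes with 2 members lower and 2 higher. Log2(TPM + 0.1) gave 1098 and 7840 genes with 3 members higher, and with 10 libraries 933 and 7704 genes with 2 members lower and 2 higher. An adjusted p under 0.01 left 2006 lower and 1676 higher genes and 0 members higher (Ckb was at 0.0149), and 2146 higher genes with 10 libraries.

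Signs turned as follows. Under the cardiomyocyte scaling with 13 libraries Ckm was at 0.19, Ak1 0.20, Ak3 0.63, Ak4 0.49, Slc25a5 1.00, Nme2 0.44, Nme5 0.13, Vdac1 0.18, Slc25a3 0.30, Vdac3 0.043, Vdac2 0.48, Prkab1 0.36, Prkag1 0.56, Prkaa2 0.27, Adss1 0.46, Mef2a 0.37, Esrra 0.44 and Tfam 0.25. With 10 libraries Ckm was at 0.10, Gatm 0.77, Gamt 0.62, Ak1 0.17, Ckmt1 0.53, Ak3 0.51, Ak4 0.40, Slc25a5 0.44, Nme2 0.28, Nme5 0.15, Vdac1 0.023, Slc25a3 0.081, Vdac2 0.32, Prkab1 0.078, Prkag1 0.33, Prkaa2 0.23, Adss1 0.42, Mef2a 0.19, Esrra 0.15 and Tfam 0.25. Library totals gave Slc25a5 0.17 with 13 libraries, and Gatm 0.24, Gamt 0.11 and Ak3 0.0099 with 10. Limma-voom gave Gamt -0.0097 with 13 libraries and Gatm 0.11 with 10, and a filter of 1 CPM in 6 libraries gave Gatm 0.0038. Log2(TPM + 1) gave Ak3 0.084 and Slc25a5 0.34 with 13 libraries, and Gatm 0.30, Gamt 0.19, Ckmt1 0.064, Ak3 0.16, Ak4 0.036, Slc25a5 0.080 and Adss1 0.060 with 10. Log2(TPM + 0.1) gave Ak3 0.086 and Slc25a5 0.34, and with 10 Gatm 0.34, Gamt 0.21, Ckmt1 0.11, Ak3 0.16, Ak4 0.040, Slc25a5 0.080 and Adss1 0.061. Leaving out knock-in 4, 5 and 6 turned Gatm to -0.0067, Gamt to -0.14 and Ckmt1 to -0.31.

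The titles number the samples but state no pairing. Deviations of same-numbered samples correlated at -0.11 to 0.085 over 6 pairs and at -0.036 to 0.24 over 3 pairs with 10 libraries. Of the knock-in libraries, 0 of 6 and 1 of 3 correlated best with the wild-type library of their own number. So few pairs cannot exclude a weak pairing. A replicate block gave 2541 lower and 2270 higher genes and 0 members higher, with Ckb at 0.93 (adjusted p = 0.0561), and with 10 libraries 1400 lower and 1385 higher genes, Slc6a8 at -0.057 and Ckmt1 at 0.023. Gatm and Gamt rested on 57 to 490 reads a library. The SE of the Gamt difference was 0.34 with 13 libraries and 0.18 with 10, without the 3 knock-in libraries that had its highest values.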
